A study of Lissachatina fulica and Mizuhopecten yessoensis with 12 samples.

Results

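Rows annotated Cda5 or FIBCD1 were followed through the hearts of 2 molluscs, the Yesso scallop (Mizuhopecten yessoensis) and the giant African snail (Lissachatina fulica). The members, chosen by name from genes that had been selected on their chamber difference, are every row of the 2 deposited chamber tables whose gene name is exactly Cda5 or FIBCD1. There were 9 of them among 6081 rows in all: 3 Cda5 and 6 FIBCD1 copies among the 1886 snail rows, and 0 among the 4195 scallop rows. Atria and ventricles of adult, wild-type animals had been taken separately and sequenced as poly-A selected RNA, with 3 libraries for each chamber of each species. No treatment or altered allele is named, and the labels do not say whether the libraries came from separate animals, so spread between libraries may be partly technical.

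Chitin is a polymer of N-acetylglucosamine that molluscs use in the radula, the gut lining and the organic framework of the shell. Cda5 is a fruit fly name for a chitin deacetylase, an enzyme family that removes acetyl groups from chitin and turns it into chitosan. FIBCD1 is a vertebrate name for a membrane receptor that binds acetylated sugars, chitin among them, through a fibrinogen-like domain. Proteins with the same kind of domain circulate in snail hemolymph as lectins. The names are annotation transfers from other animals; neither enzyme activity nor chitin binding was measured, and these genes have no textbook role in the molluscan heart. The deposited files hold no sequence of these genes.

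The tables list selected genes only. Rows had been selected on the authors' atrium-to-ventricle comparison: in the authors' deposited table the largest unadjusted p is 0.05 and the smallest change, in either direction, 1.0006 on the log2 scale. The chamber difference of the 9 copies is therefore a description here and was given no test of its own. In the authors' deposited table, the copy nearest to the p limit was FIBCD1 Afu010351 (p = 0.0383) and the copy nearest to the fold limit was FIBCD1 Afu009288 (log2 fold change of ventricle over atrium 1.09). Rows just outside these limits were not used here, and the absence of either name from the scallop table says nothing about its level in scallop. The adjusted p in the authors' deposited table was under 0.05 for 6 copies and was 0.0695, 0.11 and 0.206 for FIBCD1 Afu023547, Cda5 Afu008939 and FIBCD1 Afu010351.

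Levels below are normalized counts, that is reads divided by the size factor of the library, with no correction for gene length; levels of different copies are therefore not ranked against each other. Snail atria 1 to 3 had 1054839, 766181 and 1165104 reads on listed genes and snail ventricles 1 to 3 had 741081, 680624 and 606309. Whole library sizes are unknown. Of the heart muscle markers, 9 snail rows were listed, and their summed level ran from 12475 to 19319 in atria and from 58966 to 104935 in ventricles. The means of 7 rows were higher in ventricles, among them troponins and tropomyosin of muscle fibres. Those of the other 2 were higher in atria: the myosin light chain Mlc1 Afu021142, with a mean of 2704 against 281, and the transcription factor GATA6, with 376 against 163.

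Cda5 reads came mostly from 1 copy, Afu023000, and from atria 1 and 3. That copy took 2.98% of the reads on listed genes in atrium 1 (exact 95% binomial interval 2.95 to 3.01) and 2.17% in atrium 3 (2.14 to 2.20), against 0.0594% in atrium 2 (0.0541 to 0.0651). Such intervals cover counting error only. Its normalized count was 22954, 345 and 16811 in atria 1, 2 and 3. In ventricles 1, 2 and 3 it was 5.40, 63.2 and 82.0, from 5, 37 and 61 reads. Every atrium lay above every ventricle, but atrium 2 stood far nearer to the ventricles than to the other atria: it was 4.21 times the highest ventricle, whereas atrium 1 was 66.5 times atrium 2 (exact 95% interval 60.6 to 73.1). The mean was 13370 ± 11691 in atria and 50.2 ± 39.9 in ventricles (SD, n = 3), a ratio of 266. On the log2(normalized count + 1) scale the atrial excess was 7.30 ± 1.74 (SE), and 9.24 without atrium 2.

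The other 2 Cda5 copies had fewer reads than Afu023000 in every library and did not share 1 atrial pattern. Afu008939 stood at 21.9, 2.27 and 234 in atria 1 to 3 and at 0, 5.12 and 0 in the ventricles. The chambers overlapped, since atrium 2 with 3 reads lay below ventricle 2, also with 3 reads. Over all libraries 385 atrial reads faced 3 ventricular reads, a ratio of 69.0 after size factors with a counting interval of 23.4 to 336. Its log2 difference was 3.83 ± 1.61, and 5.33 without atrium 2 and 2.24 without atrium 3. Afu008937 stood at 11.7, 18.2 and 7.31 in the atria, from 16, 24 and 11 reads, with no read in any ventricle. Here atrium 2 was the highest of the 3 atria, and the atrial mean of 12.4 ± 5.48 (n = 3) was at least 9.32-fold higher than the ventricles, taking 3 reads over the 3 ventricles as the floor. The 2 identifiers are close in number, but the tables give no positions.

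**Figure D1:**
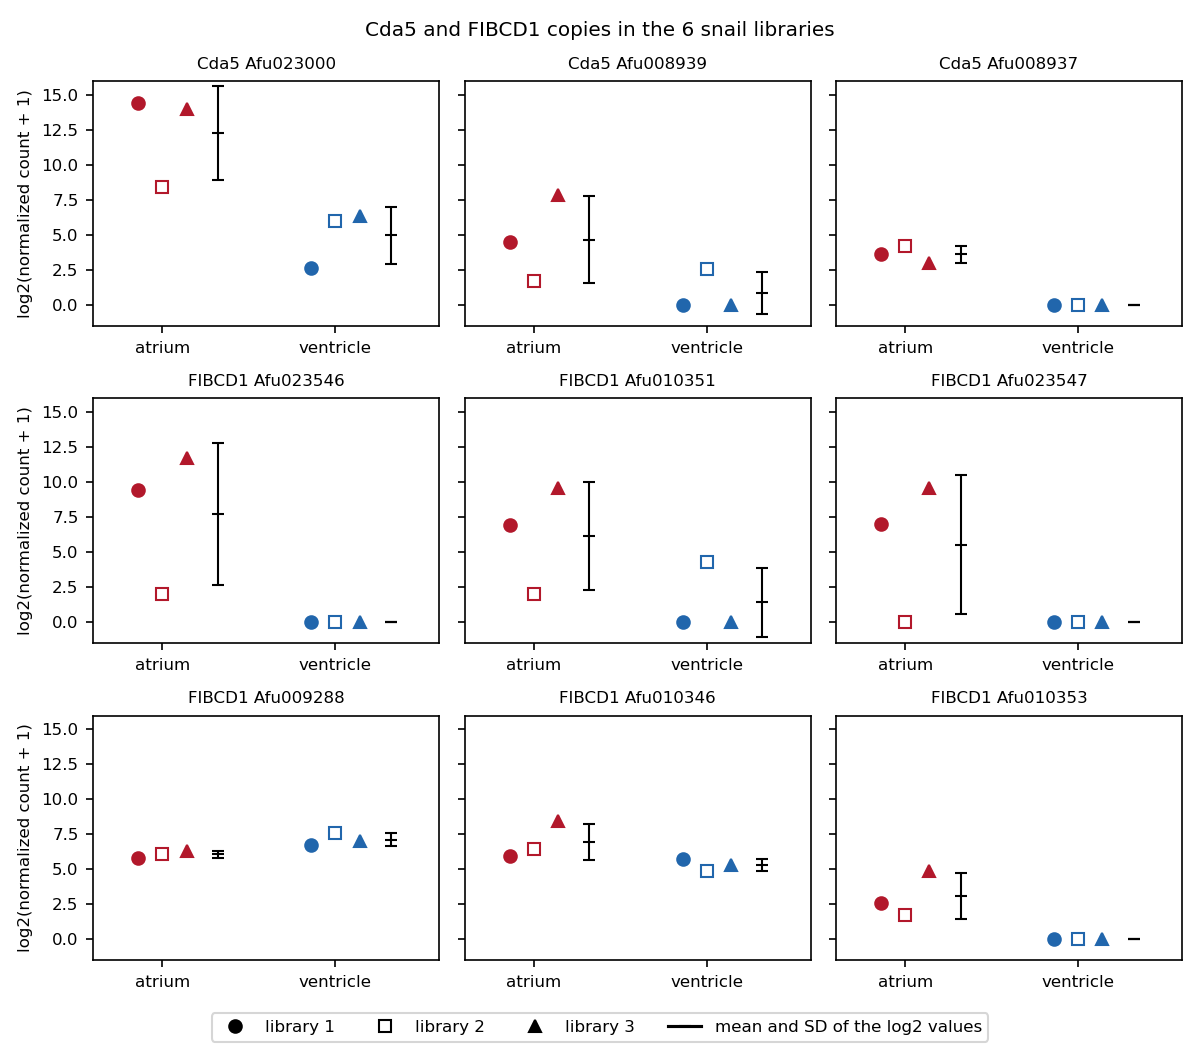
Normalized counts of the 9 copies in the 6 snail libraries, on a log2(normalized count + 1) axis; each symbol is 1 library and the black bar is the mean and SD of the 3 log2 values. Open squares mark library 2, which lies far below the other atria in Cda5 Afu023000 and in FIBCD1 Afu023546, Afu010351 and Afu023547, and above them in Cda5 Afu008937.

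FIBCD1 split into copies read almost only in atria and copies read in both chambers. In Afu023546, Afu023547 and Afu010353 no ventricle had a read, and in Afu010351 the only ventricular reads were 11 in ventricle 2. Afu010346 and Afu009288 had reads in every library, and Afu009288 was the 1 member that was higher in the ventricle.

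Afu023546 stood at 716, 3.03 and 3370 in atria 1, 2 and 3, from 981, 4 and 5069 reads. Atrium 3 was highest. Atrium 2, with 4 reads, could not be placed above the ventricles, in each of which a count of 0 allows up to 3 reads. The mean was 1363 ± 1774 in atria (n = 3), at least 1025-fold higher than the floor of 1.33 over the 3 ventricles, a bound carried by atria 1 and 3. Its log2 difference was 7.74 ± 2.27, with 10.6 without atrium 2 and 5.75 without atrium 3. Afu023547, whose identifier follows directly, stood at 133, 0 and 783 in the atria. Atrium 2 could not be told from the ventricles at this depth, since both were without reads. The atrial mean was 305 ± 419 (n = 3), at least 230-fold above the ventricular floor, and the log2 difference of 5.56 ± 2.26 became 8.34 without atrium 2 and 3.53 without atrium 3.

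Afu010351 stood at 122.6, 3.03 and 787 in atria 1 to 3 and at 0, 18.8 and 0 in ventricles 1 to 3. Ventricle 2 thus exceeded atrium 2, and the chambers overlapped. The means were 304 ± 422 and 6.26 ± 10.9 (n = 3), a ratio of 48.6, and the log2 difference was 4.76 ± 2.06, with 6.85 without atrium 2 and 3.04 without atrium 3. Afu010353, an identifier close by, stood at 5.11, 2.27 and 29.2 in the atria, from 7, 3 and 44 reads, and had none in the ventricles. Its atrial mean of 12.2 ± 14.8 was at least 9.18-fold above the ventricular floor, a bound carried mostly by atrium 3. The log2 difference was 3.08 ± 0.83, with 3.77 without atrium 2 and 2.16 without atrium 3.

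Afu010346 had reads throughout, at 62.8, 85.7 and 351 in the atria and 54.0, 29.0 and 39.0 in the ventricles. The chambers did not overlap, but atria 1 and 2 lay close to the ventricles, atrium 2 being 1.59 times the highest of them, and atrium 3 stood apart. The means were 167 ± 160 and 40.7 ± 12.6 (n = 3), and the log2 difference of 1.63 ± 0.65 fell to 0.88 without atrium 3. Afu009288 ran the other way, at 54.7, 67.5 and 79.8 in the atria and 107, 198 and 128 in the ventricles. The chambers did not overlap, with means of 67.3 ± 12.5 and 144 ± 47.8, a ventricular excess of 2.14-fold. Its log2 difference was −1.06 ± 0.32, and between −1.24 and −0.80 with any 1 library left out. In these bulk samples, fewer cells of a type and less RNA per cell cannot be told apart.

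Over the 9 copies, the chambers did not overlap in 5 with the atrium higher and in 1 with the ventricle higher. Of all 1886 snail rows 51.6% did not overlap with the atrium higher and 34.4% with the ventricle higher; the rule used this contrast, and nothing is read from the count. Without atrium 2, the counts were 8 and 1, against 61.3% and 34.9% of all rows. No read in any ventricle was seen in 4 of the 9 copies and in 11.6% of all snail rows.

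**Figure D2:**
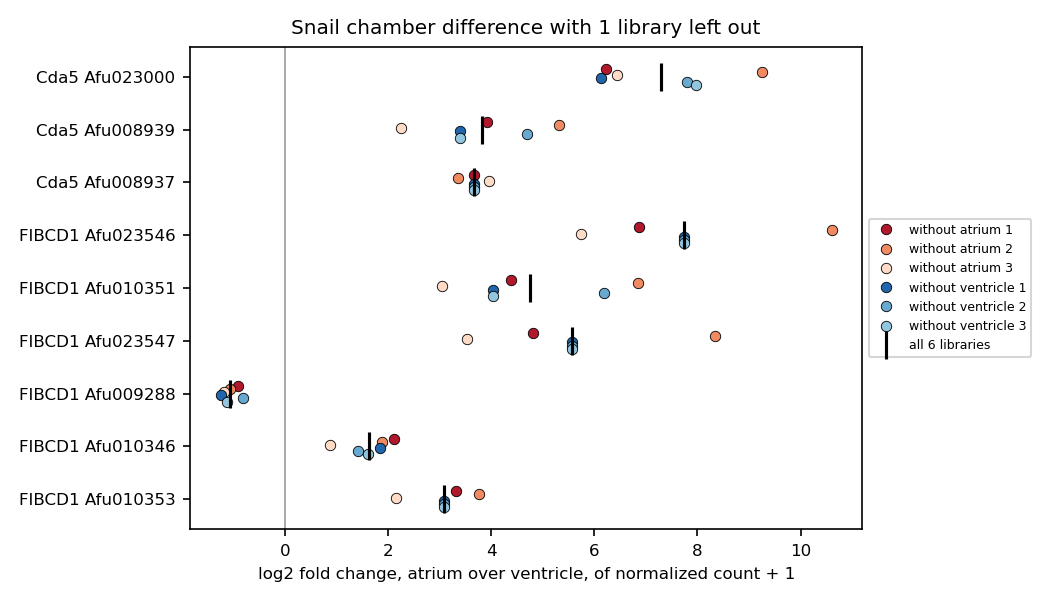
Log2 fold change of atrium over ventricle for each copy with all 6 snail libraries (black bar) and with 1 library left out (coloured points), on the log2(normalized count + 1) scale. Leaving out atrium 2 moves Afu023546 from 7.74 to 10.6 and leaving out atrium 3 moves it to 5.75, while no copy changes sign.

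The spread among the 3 atria was wide for most members. The SD of the log2 values over the atria was 5.08 in FIBCD1 Afu023546, 4.98 in Afu023547, 3.86 in Afu010351, 3.37 in Cda5 Afu023000 and 3.09 in Cda5 Afu008939. These were above 92.3% to 99.5% of the 1184 snail rows that the authors' deposited table gives as higher in the atrium, whose median SD was 0.54. FIBCD1 Afu010353 and Afu010346 had SDs of 1.65 and 1.31, above 80.9% and 76.6% of those rows. Cda5 Afu008937, at 0.60, was near the middle of them, and FIBCD1 Afu009288, which is not among them, had an atrial SD of 0.27.

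**Figure D3:**
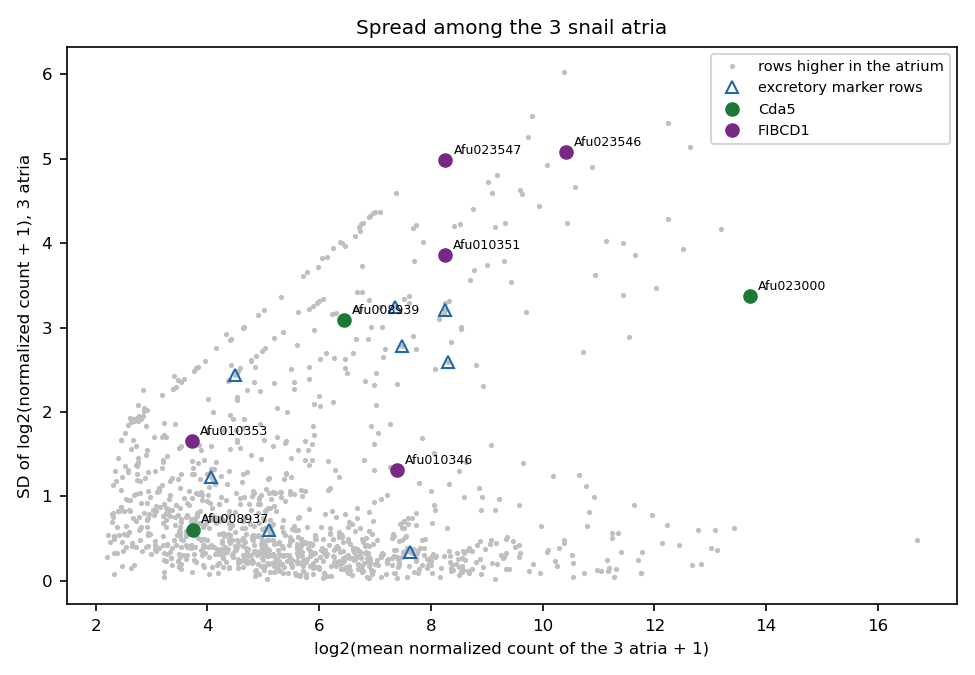
Each grey point is 1 of the 1184 snail rows higher in the atrium, by the log2 of its mean atrial normalized count + 1 (horizontal) and the SD of its log2(normalized count + 1) over the 3 atria (vertical). FIBCD1 Afu023546 and Afu023547 lie near the top with SDs of 5.08 and 4.98, and some excretory marker rows lie at raised SDs as well.

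Atrium 2 was the lowest atrium in the 5 copies with the widest spread. With a limit of 10-fold, chosen after the values were seen, 4 of the 8 member copies higher in the atrium were lower in atrium 2 than in both other atria: Cda5 Afu023000 and FIBCD1 Afu023546, Afu010351 and Afu023547. Among all 1184 rows higher in the atrium 170 met the limit, or 14.4%. The same limit was met by 1 row for atrium 1 and by 0 rows for atrium 3. Cda5 Afu008939 fell just short, with atrium 1 at 9.63 times atrium 2 (exact 95% interval 2.99 to 49.3, from 30 and 3 reads). Those 4 copies were thus among 170 atrial rows low in the same library, whereas Cda5 Afu008937 was highest there and FIBCD1 Afu010346 and Afu009288 were lowest in atrium 1.

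The ratio between atria 3 and 1 separated the 5 atrial FIBCD1 copies from the main Cda5 copy. Atrium 3 exceeded atrium 1 by 4.71-fold in Afu023546 (exact 95% interval 4.39 to 5.04), 5.90-fold in Afu023547 (5.04 to 6.93) and 6.42-fold in Afu010351 (5.46 to 7.59). In Afu010346 it was 5.59-fold (4.45 to 7.11), although that copy was not low in atrium 2. In Afu010353 it was 5.72-fold, with a wide interval of 2.56 to 15.1. So all 5 atrial FIBCD1 copies had atrium 3 between 4.71 and 6.42 times atrium 1, and the intervals of Afu023546 and Afu010351 did not meet. FIBCD1 Afu009288, the copy higher in the ventricle, was at 1.46 (1.08 to 1.97), below those 5. Cda5 Afu023000 had the opposite order, with atrium 3 at 0.732 times atrium 1 (0.720 to 0.745). Among the 1183 rows higher in the atrium with reads in both libraries, the median ratio was 1.18 (quartiles 0.835 and 2.004), and 10.1% reached 4-fold. Among the rows low in atrium 2 the median ratio was 2.61 (quartiles 1.28 and 4.18). Cda5 Afu008939, at 10.7-fold (7.35 to 16.1), was on the side of the atrial FIBCD1 copies, and Cda5 Afu008937, at 0.626 (0.263 to 1.44), had an interval that spans equality. These intervals compare single libraries, not conditions.

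**Figure D4:**
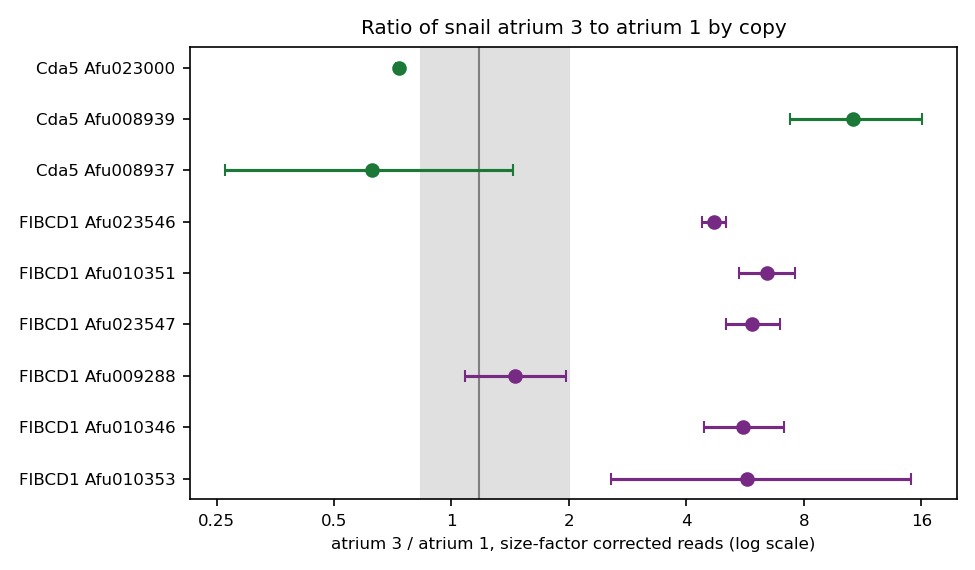
Atrium 3 over atrium 1 for each copy on a log2-spaced axis, from reads corrected by size factor, with exact 95% counting intervals; the grey band and line are the quartiles and median of all snail rows higher in the atrium. The 5 atrial FIBCD1 copies sit between 4.71 and 6.42, and Cda5 Afu023000 sits at 0.732.

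Of the cell type lists with rows in the snail table, 3 held rows that were low in atrium 2 by the same limit: excretory, hemocyte, and epithelium and mucus. The other 3 held none (heart muscle, neurons and secretory cells, and cilia). The limit was applied only to rows higher in the atrium, so rows higher in the ventricle could not meet it. Of the 9 excretory marker rows listed in snail, 5 met the limit for atrium 2, beside 14.4% of all rows higher in the atrium. They were 3 rows of CUBN and 1 of LRP2, endocytic receptors of absorptive epithelia, and SLC34A2, a sodium-phosphate carrier. LRP2 stood at 91.2, 3.79 and 397 in atria 1 to 3 and SLC34A2 at 304, 19.7 and 628. The summed level of the list was 1010, 278 and 2455 in the atria and from 77.9 to 167 in the ventricles. It was highest in ventricle 2, in which FIBCD1 Afu010351 and Cda5 Afu008939 had their only ventricular reads. The summed levels of the heart muscle, hemocyte and neuron lists were also highest in ventricle 2, so this is not particular to the excretory list. The cilia sum was highest in ventricle 3. One CUBN row, Afu011180, had no read in any ventricle. The list did not move as 1 block: SLC5A9, a sodium-coupled sugar carrier, stood at 152, 194 and 243 in the atria, and AMN, the partner of CUBN, at 25.5, 23.5 and 51.2. NPHS1 Afu018157 stood at 13.1, 4.55 and 29.2 in the atria. NPHS1 Afu023118 had a higher mean in ventricles, at 18.2, 14.4 and 25.3 in atria and 45.3, 58.1 and 20.2 in ventricles.

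The hemocyte and immune list had 8 rows, of which RUNX1, higher in the ventricle, could not meet the limit for atrium 2. Of the list, 2 rows met it, beside 14.4% of all rows higher in the atrium. They were MRC1, a mannose receptor of macrophages in mammals, at 2692, 91.0 and 9700 in atria 1 to 3, and the lectin CLEC1B at 31.4, 3.03 and 132. The multicopper oxidase rows Mco1 Afu020862, at 19.0, 2.27 and 275, and Afu020753, at 14.6, 6.82 and 58.5, did not meet it. Both were still lowest in atrium 2 and highest in atrium 3. Some rows of the list had another order. The lectin CLEC19A stood at 62.0, 222 and 507 in the atria, and Mco1 Afu017927 at 263, 195 and 156. The complement component c3 stood at 43.1, 58.4 and 29.9, highest in atrium 2. The summed level of this list, carried mostly by MRC1, was 3127, 579 and 10863 in the atria and from 288 to 553 in the ventricles. The only row of the epithelium and mucus list, the mucin MUC20, stood at 29.9, 0.758 and 53.8 in the atria with no read in the ventricles. None of the 9 heart muscle rows, the 4 neuron and secretory rows or the 3 cilia rows met the limit. This was fixed beforehand for the 7 heart muscle rows, the 2 PCSK2 rows and the cilia row CFAP20 that were higher in ventricles. No conclusion is therefore drawn from these counts. The neuron and secretory rows summed to 770, 509.6 and 737 in the atria and to between 392 and 565 in the ventricles, and the cilia rows to 19.7, 24.3 and 16.6 and to between 17.1 and 21.5. No row of the shell-forming mantle list was in the snail table. The size factors of atria 1 to 3 were 1.37, 1.32 and 1.504. The part of these markers in the Cda5 and FIBCD1 values was not tested.

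**Figure D5:**
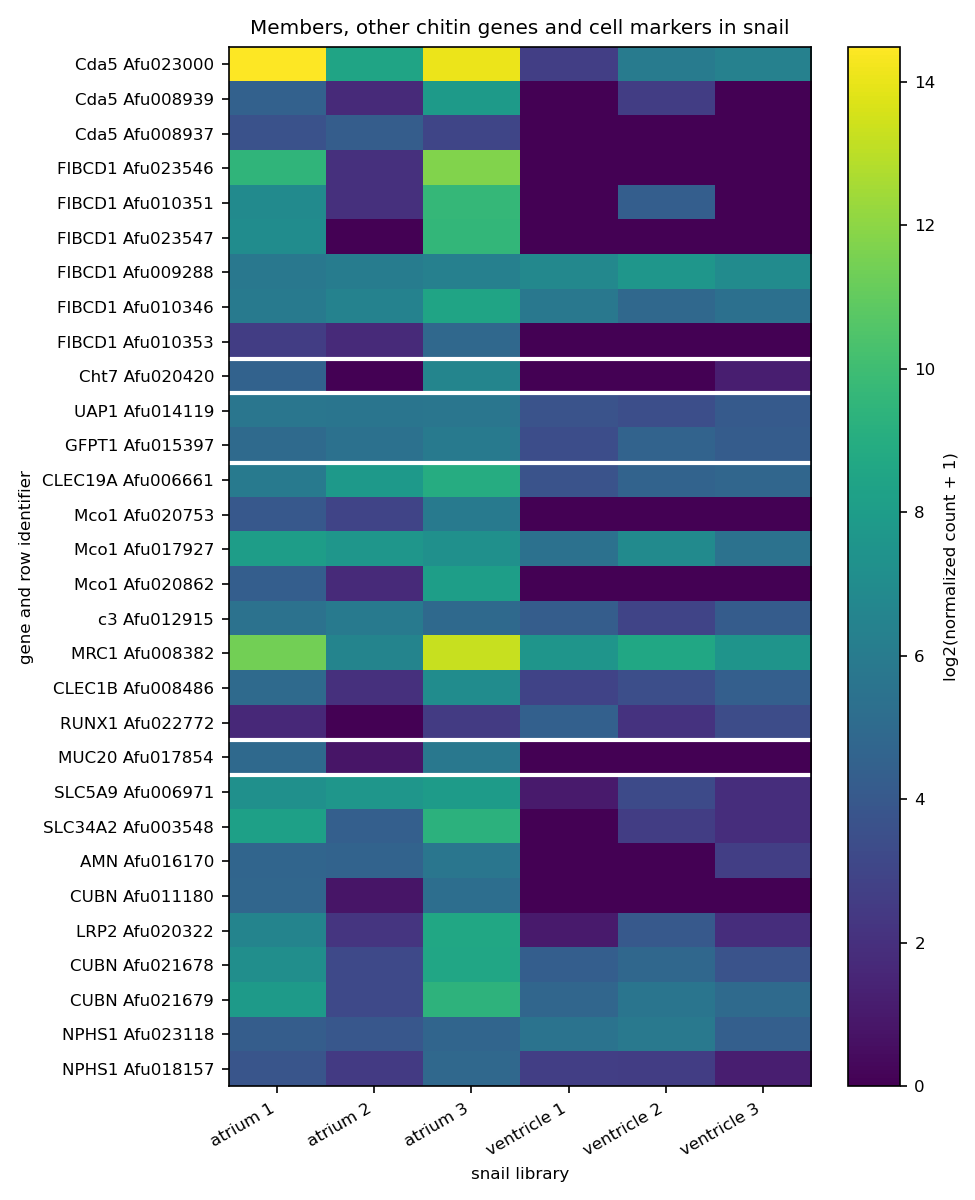
Log2(normalized count + 1) in the 6 snail libraries for the 9 members, then, between white lines, a chitinase, rows of N-acetylglucosamine synthesis, the hemocyte list, the mucin and the excretory list. CUBN, LRP2, SLC34A2 and MRC1 are darker in atrium 2 than in the other atria, like Cda5 Afu023000 and FIBCD1 Afu023546, whereas SLC5A9 and UAP1 are even across the atria.

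Other genes that make or cut N-acetylglucosamine polymers or their precursors were few among the rows considered in snail, and of them only the chitinase row was low in atrium 2 by the same limit. A row passed when the limma adjusted p was under 0.05 and the change at least 2-fold; 46.9% of the 1489 tested snail rows passed toward the atrium and 37% toward the ventricle (698 and 551 rows, or 307 and 592 under quantile normalization). Every listed row of either species had already been selected on this same contrast. The calls and adjusted p-values here and below are therefore descriptive, not independent evidence of a chamber difference. Of the 3 rows considered 2 passed toward the atrium. The median log2 fold change was 1.91 over the 3, beside 1.22 over all tested rows. UAP1, which makes UDP-N-acetylglucosamine, the building block of chitin, stood at 51.1, 47.8 and 50.5 in atria and 11.9, 10.2 and 16.1 in ventricles, a difference of 1.91 ± 0.32 on the log2 scale (limma adjusted p = 0.00291). It was about as high in atrium 2 as in the other atria, unlike the 4 copies low there.

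GFPT1, the entry enzyme of the same route, stood at 31.4, 41.7 and 61.8 in atria and 9.72, 23.9 and 17.5 in ventricles (1.38 ± 0.45, limma adjusted p = 0.025). Its call was lost without ventricle 1, ventricle 3 or atrium 3 (limma adjusted p = 0.0651, 0.0534 and 0.0834). Under quantile normalization UAP1 (0.0907) and GFPT1 (0.469) did not pass. Cht7, named for a fruit fly chitinase, stood at 22.6, 0 and 93.7 in the atria and 0, 0 and 1.34 in the ventricles. Like FIBCD1 Afu023546, Afu010351 and Afu023547, it was low in atrium 2 and highest in atrium 3, whereas Cda5 Afu023000 was highest in atrium 1. Cht7 did not pass (3.30 ± 1.71, limma adjusted p = 0.101; 5.15 and limma adjusted p = 0.00189 without atrium 2; edgeR adjusted p = 0.0321).

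Other genes of the fibrinogen-domain list numbered 4 in the snail table. None of them was low in atrium 2 by that limit, which the row sca, higher in the ventricle, could not meet. ANGPTL1, an angiopoietin-like secreted protein, stood at 81.0, 63.7 and 84.4 in atria and 21.6, 30.7 and 9.41 in ventricles and passed (1.98 ± 0.45, limma adjusted p = 0.00809). The row named sca, after the secreted fruit fly protein scabrous, passed toward the ventricle, at 3.65, 0.758 and 1.33 against 18.4, 20.5 and 17.5 (−2.88 ± 0.64, limma adjusted p = 0.00703). The median over these 2 tested rows was −0.46. TNR and ANGPT4 lay below the filter on the mean, at 13.9, 1.52 and 4.65 and at 5.84, 9.86 and 18.6 in the atria.

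In scallop, 3 rows of the chitin and amino sugar lists were in the table and none of the fibrinogen list. The chitinase Cht7 stood at 184, 224 and 19.3 in atria and 847, 45.1 and 665 in ventricles. Its libraries overlapped and it did not pass (−1.65 ± 1.16, limma adjusted p = 0.186; −2.99 and 0.0266 without ventricle 2). RENBP, which acts on N-acetylglucosamine, stood at 46.3, 36.3 and 66.2 against 76.3, 147 and 98.5 (−1.09 ± 0.55, limma adjusted p = 0.0767, and 0.00889 under quantile normalization). So 0 of these 2 tested rows passed, beside 87.6% of the 3927 tested scallop rows in either direction, and their median of −1.37 compares with −1.01 over all. The chitin synthase row chs1 was below the filter, with 10.6, 7.64 and 15.6 in atria and 0, 0 and 2.82 in ventricles. The row CDA was left out, since that symbol stands for cytidine deaminase.

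The rows most like each copy were taken by Pearson's r of log2(normalized count + 1) over the 6 libraries, among 844 other snail rows with a symbol. These r values describe rows already chosen for a chamber difference and share the 6 libraries, so they carry no p. Cda5 Afu023000 was closest to SLC34A2 (r = 0.988), APMAP (0.986) and TMTC4 (0.975). APMAP, a membrane protein named for adipocytes, stood at 482, 9.10 and 415 in the atria and shared the higher level of atrium 1 over atrium 3. SLC34A2 and TMTC4 had the opposite order, at 304 and 30.7 in atrium 1 and 628 and 33.2 in atrium 3. FIBCD1 Afu023546 was closest to MUC20 (0.999), daf-9 (0.997) and CUBN Afu011180 (0.997), and Afu023547 to the lectin CD209 (0.9998), daf-9 and C1QL3. The closest rows of these copies included 2 of the excretory list and the mucin, beside rows of neither list such as APMAP, TMTC4, daf-9 and C1QL3. MUC20, daf-9 and CUBN Afu011180 each stood at 0.758 in atrium 2 with no read in any ventricle. CD209 stood at 48.9, 0 and 247 in the atria and also had no read in any ventricle. Like Afu023547 it thus had reads in atria 1 and 3 only, and their r rests on those libraries and shared zeros.

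FIBCD1 Afu010351 was closest to FBXO4 and LRP2 (both 0.990) and SEPP1 (0.980), and Cda5 Afu008939 to SEPP1 (0.995), C06E1.3 (0.994) and FBXO4 (0.990). Those 2 copies, 1 of each gene, shared SEPP1 and FBXO4, whose levels were highest in atrium 3 and, among ventricles, in ventricle 2. FIBCD1 Afu010346 was closest to PCK1 (0.975), RELN (0.957) and SLC39A12 (0.929). Of these, PCK1, an enzyme of glucose synthesis, stood at 48.9, 123.6 and 513 in the atria, with the same order of libraries as the copy. FIBCD1 Afu010353 was closest to RPN2 (0.994), the multicopper oxidase Mco1 Afu020862 (0.990) and the oxidase DUOX2 (0.988). Cda5 Afu008937, highest in atrium 2, was closest to RGMB (0.992), slc23a2 (0.989) and ZNFX1 (0.986). FIBCD1 Afu009288 was closest to RNASEH2C (0.997), GCSH (0.993) and PHYKPL (0.987), all higher in the ventricle and highest in ventricle 2.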

How the data were processed

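Poly-A selected RNA of atria and ventricles was sequenced in 12 libraries. Per the submitters' processing notes the tools were DESeq2 1.20.0, StringTie 1.3.3b, featureCounts 1.5.0 and HISAT2 2.0.5; what each was used for is not said. The genome builds, gene models, strandedness and the handling of reads shared by near-identical copies are not given in the sources used here; reads of similar FIBCD1 or Cda5 copies could be split or shared. The library columns hold a signal that the authors deposited as counts divided by 1 size factor per library: every value was a whole multiple of 1 step (tolerance 0.01 read), so whole reads were recovered. The authors' deposited log2 fold changes, test score and p-values are for ventricle over atrium, per the file headers and the values.

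Fold changes here are atrium over ventricle, from limma 3.58.1 (R 4.3.3, with trend) of log2(normalized count + 1). This scale understates low genes. The fit covered each whole table above a minimum mean of 10 over 6 libraries, with Benjamini-Hochberg adjustment over all of them; 7 of the 9 copies passed this filter, and the SE of the other 2 comes from a fit without it. edgeR 4.0.16 and DESeq2 1.42.0 on recovered reads were alternatives; edgeR called 1217 snail rows. The members and lists were chosen with earlier results of these data known, and list patterns that caught unrelated symbols (CDA, TPMT, KRTCAP2, LYST and the like) were narrowed after symbols were read; mucins were left out of the chitin list, and 1 list is not reported here. Named genes are all members and, for each, the 3 rows with a symbol and the highest r. Same-numbered chambers were not treated as pairs: the labels do not pair them. Intervals are exact binomial ones on reads.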

Additional observations from a re-analysis of the deposited data

How the results depend on the processing

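No copy changed direction under any of the 13 alternatives tried. With 1 library left out, the log2 fold change ran from 6.13 to 9.24 in Cda5 Afu023000, 2.24 to 5.33 in Afu008939 and 3.36 to 3.96 in Afu008937, and in FIBCD1 from 5.75 to 10.6 in Afu023546, 3.04 to 6.85 in Afu010351, 3.53 to 8.34 in Afu023547, −1.24 to −0.80 in Afu009288, 0.88 to 2.11 in Afu010346 and 2.16 to 3.77 in Afu010353. Copies with no ventricular reads depended on the constant added to them or on the tool: Afu008937 gave 4.60 with a pseudocount of 0.5, 1.75 with 5, 1.48 under quantile normalization, 6.86 in edgeR and 5.77 in DESeq2, Afu010353 gave 1.44 with a pseudocount of 5, 0.996 under quantile normalization, 6.81 in edgeR and 5.54 in DESeq2, and edgeR and DESeq2 gave 13.5 and 12.3 for Afu023546 and 11.4 and 10.1 for Afu023547. Afu009288 gave −1.502 under quantile normalization. A further TMM scaling moved the median of all tested snail rows from 1.22 to 1.40 and quantile normalization moved it to 0.31. The snail table had 1249 rows past the threshold, and 961 to 1282 with 1 library left out; the scallop table had 3440, and 1808 to 3483 with 1 left out, 2105 under quantile normalization, 2009 in edgeR and 2139 in DESeq2. With the replicate number as a block, 1170 snail and 3022 scallop rows passed. Same-numbered snail chambers correlated at −0.06, −0.09 and 0.06 in their deviations and scallop ones at −0.13, −0.16 and −0.12. These values cannot decide whether same-numbered chambers share an animal, since chambers of the same animal need not deviate together. Only scallop Cht7 among the genes named with a call changed side (limma adjusted p = 0.0242 with the block). The 10-fold limit for atrium 2 was chosen after the data were seen; 5-fold and 20-fold gave 210 and 143 rows and 5 and 4 member copies. Of the 27 closest rows, 17 stayed within the top 3 by rank correlation, ties included, and 9 by deviations from the chamber means. The scallop table has no member copy, so no member value could be recomputed there. Afu008937 and Afu010353, with 51 and 54 reads in all, are limited by depth.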
